A study of Mus musculus with 24 samples.

Results

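The collagen genes of the mouse thoracic aorta were taken as every row of the gene count table whose symbol has the form Col, a number, a and a number. The table held 43 such symbols among 25941 genes, and the 37 with a mean raw count of 10 or more over all 24 libraries are reported. All 37 were among the 14451 genes tested. With rofecoxib, Col1a1 and Col1a2, the chains of type I collagen, were lower than in control aortas together with Col16a1, Col8a2 and Col27a1, and no collagen gene was called higher. With celecoxib 1 collagen gene, the low-count Col22a1, was called lower. Of the calls against control, those of Col1a1 with rofecoxib and of Col22a1 with celecoxib held after expression was corrected for transcript GC content. None of the collagen calls with rofecoxib held without rofecoxib 7 and rofecoxib 8. Calls with rofecoxib over all genes then fell from 766 to 37.

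The 24 libraries came from the thoracic aorta of wildtype adult male C57BL/6 mice aged 10 to 12 weeks, with 8 libraries a group. For 3 weeks the control group ate regular chow with no drug, the celecoxib group ate chow with celecoxib at 100 mg/kg/day, and the rofecoxib group ate chow with rofecoxib at 50 mg/kg/day. Both drugs are nonsteroidal anti-inflammatory drugs selective for the inducible cyclooxygenase, and their doses differed. Collection was at zeitgeber time 11 (hours after lights on), and polyA RNA was sequenced. No genotype or other agent was varied. The comparisons are of either drug against control, and between the drugs.

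Collagens are secreted proteins in which each chain repeats glycine at regular steps of 3 residues, so that chains can wind around each other in a triple helix. In the wall of a large artery, fibrils of type I and type III collagen carry tensile load in the media and adventitia, and smooth muscle cells and adventitial fibroblasts are their main sources. Type IV collagen forms the network of basement membranes around smooth muscle cells and under the endothelium, type VI collagen forms beaded filaments, and types XV and XVIII, the multiplexins, lie close to basement membranes. FACIT collagens, such as types XIV and XVI, attach to the surface of fibrils.

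The glycine repeat is visible in the coding sequence, and 81 bases from the helical part of each of the main fibrillar chains are shown because the repeat is their defining feature. Capitals mark the glycine codon that opens each triplet of codons, and other glycine codons, as in Col3a1, are in lower case. The stretches are from GENCODE M21 transcripts, at transcript positions 647 to 727 for Col1a1 (chromosome 11), 636 to 716 for Col1a2 (chromosome 6) and 700 to 780 for Col3a1 (chromosome 1).
Col1a1: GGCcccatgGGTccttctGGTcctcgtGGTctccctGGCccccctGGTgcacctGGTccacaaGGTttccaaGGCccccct
Col1a2: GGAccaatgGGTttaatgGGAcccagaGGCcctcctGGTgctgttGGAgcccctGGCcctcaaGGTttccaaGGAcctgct
Col3a1: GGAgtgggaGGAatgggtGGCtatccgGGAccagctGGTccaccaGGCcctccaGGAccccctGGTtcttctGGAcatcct
The longest run of unbroken glycine triplets was 338 in Col1a1, 339 in Col1a2 and 344 in Col3a1. Glycine and proline made up 26.8% and 19.0% of the Col1a1 codons, 27.8% and 16.3% of those of Col1a2, and 28.3% and 19.5% of those of Col3a1. Over the whole transcript GC content was 58.9% for Col1a1, 55.7% for Col1a2 and 52.5% for Col3a1. The 37 collagen transcripts had a median GC content of 55.7%, with a range of 46.8% to 62.9%, and 30 of them lay above the median of all genes tested, 50.3%.

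Promoter windows of 300 bases (250 before to 50 after the annotated start, RefSeq, GRCm38.p6) are shown for 2 genes that were lower with rofecoxib and have an entry, Col1a2 and Col16a1, and for the head-to-head pair Col4a1 and Col4a2. Of the 37 genes, 29 had a promoter entry, and Col1a1 is among the 8 without one. Capitals mark CCAAT and its reverse ATTGG, the GC box GGGCGG and its reverse CCGCCC, and TATAAA and its reverse TTTATA.
Col1a2, chr6:4505368-4505667, plus strand: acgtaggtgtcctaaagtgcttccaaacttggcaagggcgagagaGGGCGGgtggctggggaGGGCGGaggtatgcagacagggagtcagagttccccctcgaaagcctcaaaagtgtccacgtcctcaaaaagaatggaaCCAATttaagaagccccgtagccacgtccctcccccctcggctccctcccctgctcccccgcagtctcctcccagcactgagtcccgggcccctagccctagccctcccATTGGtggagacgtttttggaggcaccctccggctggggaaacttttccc
Col16a1, chr4:130047590-130047889, plus strand: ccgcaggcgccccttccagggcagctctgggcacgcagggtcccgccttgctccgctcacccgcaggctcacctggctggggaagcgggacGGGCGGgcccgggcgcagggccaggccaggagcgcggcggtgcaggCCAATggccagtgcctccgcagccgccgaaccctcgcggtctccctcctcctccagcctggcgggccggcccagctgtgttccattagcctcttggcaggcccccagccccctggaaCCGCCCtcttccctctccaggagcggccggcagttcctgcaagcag
Col4a1, chr8:11312777-11313076, minus strand: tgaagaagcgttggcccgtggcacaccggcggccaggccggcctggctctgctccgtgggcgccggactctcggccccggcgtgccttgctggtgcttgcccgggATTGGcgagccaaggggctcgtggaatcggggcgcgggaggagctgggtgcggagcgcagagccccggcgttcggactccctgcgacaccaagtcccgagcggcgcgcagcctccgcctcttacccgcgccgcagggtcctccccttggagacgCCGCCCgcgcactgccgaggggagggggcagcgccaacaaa
Col4a2, chr8:11312555-11312854, plus strand: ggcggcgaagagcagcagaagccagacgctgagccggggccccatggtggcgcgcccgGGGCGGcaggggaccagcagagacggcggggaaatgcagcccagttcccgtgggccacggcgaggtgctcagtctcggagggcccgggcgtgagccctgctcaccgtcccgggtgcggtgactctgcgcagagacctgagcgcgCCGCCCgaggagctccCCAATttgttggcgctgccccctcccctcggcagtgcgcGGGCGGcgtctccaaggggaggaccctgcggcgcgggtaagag
The Col4a1 and Col4a2 windows lie on opposite strands, have starts 21 bases apart and share 78 bases. The 29 genes had 31 promoter entries. CCAAT was in 9 of these 31 entries and in 37.4% of all 32851 entries, the GC box in 20 of 31 and in 35.7%, and TATAAA in 4 of 31 and in 13.6%. Matches were counted on both strands and each motif on its own, so ATTGG and GGGCGG could share bases, and a match describes letters only.

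Counts summed to between 21652432 and 21687906 per library. The slope of expression on transcript GC content (log2 CPM for each unit of GC fraction) had a mean of 0.29 ± 0.89 in controls, 0.79 ± 0.96 with celecoxib and -1.09 ± 0.97 with rofecoxib (SD, n = 8 each). Rofecoxib 8, at -2.80, and rofecoxib 7, at -2.27, had the lowest slopes of the 24. Control 6 stood apart by its summed adipocyte markers (5241 CPM, with a control median of 1482) and rofecoxib 2 by its summed cardiac muscle markers (492 CPM, with a rofecoxib median of 92.1). Smooth muscle markers, which define the tissue, summed to between 35393 and 53239 CPM in all libraries. Collagen, enzyme and receptor results are given beside their GC-corrected calls, and without rofecoxib 7 and rofecoxib 8 where a call changed. Marker results are given beside their GC-corrected calls, and were not recomputed without those libraries.

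Levels spanned more than 3 orders of magnitude. Per kilobase of transcript, as TMM-scaled CPM averaged over the 24 libraries, Col1a2 was highest at 765, with single libraries from 565 to 960, followed by Col3a1 at 644 (468 to 856), Col18a1 at 479 (368 to 602) and Col1a1 at 349.5 (190.1 to 496). Ranges of neighbours in this order overlapped. Next came the chains of type VI, Col6a1 at 240.0 and Col6a2 at 217, and of the ubiquitous type IV network, Col4a1 at 207 and Col4a2 at 195, then Col15a1 at 110.2 and Col4a5 at 96.7. Col5a2, Col5a1, Col6a3, Col4a6 and Col14a1 lay between 89.9 and 56.8. A gap followed to Col16a1 at 16.2 and Col27a1 at 10.7, and the other 20 genes were at 5.69 or lower.

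**Figure D1:**
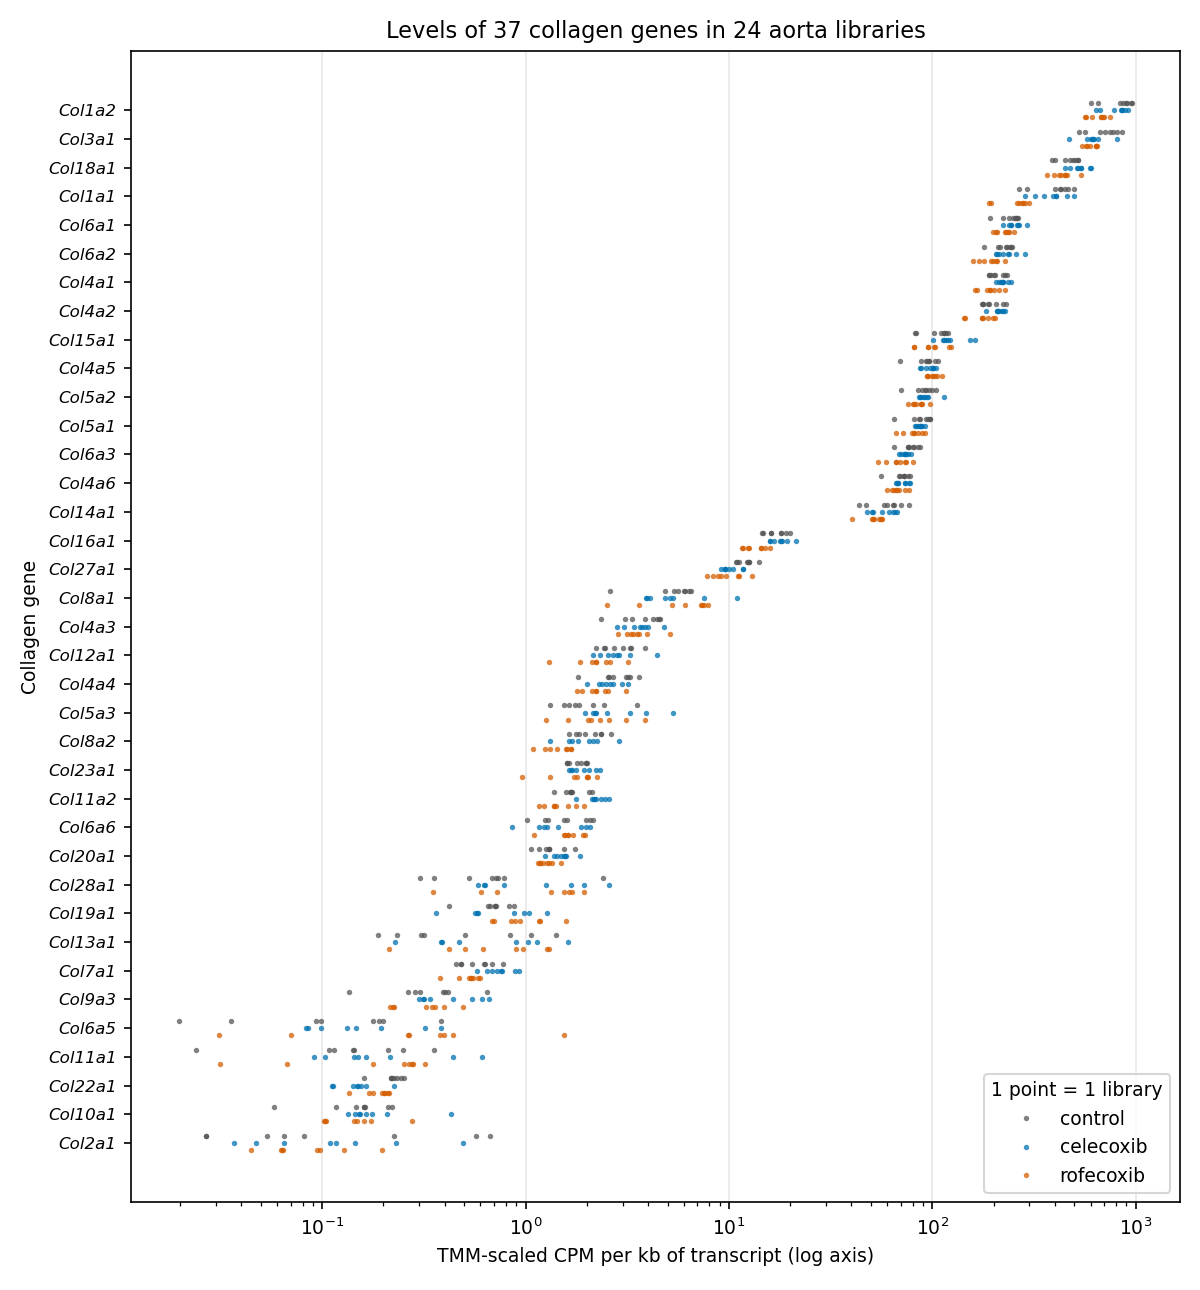
Levels of the 37 collagen genes, ordered by their mean over 24 libraries. Each point is 1 library, the x axis is TMM-scaled CPM per kb of transcript on a log axis, and colours are the groups. Col1a2 leads at a mean of 765 and Col2a1 is last at 0.155, and the 15 genes down to Col14a1 are separated by a gap from the rest.

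Collagen symbols together took 2.27% ± 0.25 of the counts of a control library, 2.24% ± 0.18 with celecoxib and 1.93% ± 0.13 with rofecoxib (SD, n = 8 each). Rofecoxib values ran from 1.73% to 2.11%, and control 6 at 1.79% and control 8 at 2.01% lay among them. Within the collagen counts, fibrillar collagens held 53.9% ± 2.87 in controls, 50.9% ± 2.83 with celecoxib and 50.5% ± 0.81 with rofecoxib. The basement membrane network held 16.8% ± 1.31, 17.8% ± 1.41 and 18.5% ± 0.53, and the multiplexins 14.1% ± 1.41, 16.0% ± 1.51 and 15.4% ± 0.74, in the same order. These shares are descriptions, not tests.

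Some low members are known from tissues other than the vessel wall. Col2a1, the main collagen of cartilage, had control values from 0.138 to 3.40 CPM with a median of 0.372. Col10a1, made by hypertrophic chondrocytes, had control values from 0.181 to 0.688 CPM, and Col9a3, a chain of the cartilage FACIT type IX, from 0.413 to 1.96 CPM. Col28a1, known from peripheral nerve, ranged from 1.28 to 10.2 CPM in controls. Of the 6 symbols under the mean count of 10, Col6a4 was highest with a mean count of 8.63, just outside the limit, and Col10a1 was just inside it at 11.3. The other 5, Col9a1, Col24a1, Col9a2, Col17a1 and Col25a1, had mean counts of 6.08 to 1.13.

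With rofecoxib, 5 of the 37 collagen genes were called lower than control and none higher in edgeR's quasi-likelihood test, called at an adjusted p under 0.05. The called share was 13.5%, against 5.3% of all genes tested (2.43% higher and 2.87% lower). After GC correction 1 was called, lower, against 1.2% of all genes (0.595% higher and 0.609% lower). Fibrillar chains made up 3 of the 5 calls, among 10 fibrillar genes reported. The median log2 fold change of the 37 was -0.11, and that of all genes was 0.00. At an unadjusted p under 0.05, 2 of the 37 were higher and 13 lower in edgeR. Here and below, counts at an unadjusted p have no share of all genes beside them. They are therefore not read as a result about the members. DESeq2 called 6 lower and none higher, adding Col6a3. Over all genes DESeq2 called 1567 with rofecoxib, where edgeR called 766.

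Col1a1, the alpha1 chain of type I collagen (ENSMUSG00000001506, at 94797336 to 94814558 of chromosome 11, mm9), ran from 1583 to 2944 CPM in controls with a median of 2531. With celecoxib it ran from 1685 to 2939 CPM with a median of 2364, and with rofecoxib from 1128 to 1779 CPM with a median of 1605. All 8 rofecoxib libraries lay below the control median and 4 of 8 below the lowest control, while the ranges overlapped. Means were 2392 ± 483 and 1519 ± 243 CPM (SD, n = 8 each), a log2 fold change of -0.65 ± 0.13 (SE, edgeR adjusted p = 0.0119). The call held whichever of the 24 libraries was left out, and after GC correction (-0.53, edgeR adjusted p = 0.0397). With GC correction and a block for replicate number together, the call was lost. Without rofecoxib 7 and rofecoxib 8, the lowest in both Col1a1 and GC slope, the log2 fold change was -0.54 and not called (edgeR adjusted p = 0.0675). Over all genes 37 were then called with rofecoxib, against 766 with all libraries.

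Col1a2, the alpha2 chain of type I collagen (ENSMUSG00000029661, mm9 chromosome 6 from 4454612 to 4491745), ran from 3238 to 5135 CPM in controls with a median of 4727. With rofecoxib it ran from 3020 to 3987 CPM with a median of 3610, and all 8 libraries were below the control median. The log2 fold change was -0.35 ± 0.09 (edgeR adjusted p = 0.036), with 2 of 8 rofecoxib libraries below the lowest control. After GC correction it was -0.28 and not called (edgeR adjusted p = 0.122), and the call was lost without any 1 of rofecoxib 2, rofecoxib 7, rofecoxib 8, control 2, control 3, control 5 or control 7 (highest edgeR adjusted p = 0.0833).

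The other 3 genes called lower are expressed at lower levels. Col16a1, the chain of the FACIT type XVI, had 75.8 to 103.8 CPM in controls and 60.1 to 82.6 CPM with rofecoxib, with 6 of 8 libraries below the lowest control (log2 fold change -0.34 ± 0.08, edgeR adjusted p = 0.0196). Col8a2, a chain of the short-chain network collagen type VIII, had 7.10 to 11.4 CPM in controls and 4.70 to 7.26 CPM with rofecoxib, again with 6 of 8 below the lowest control (-0.53 ± 0.13, edgeR adjusted p = 0.0293). Col27a1, a fibrillar collagen known best from cartilage, had 82.1 to 106.5 CPM in controls and 59.3 to 99.1 CPM with rofecoxib, with rofecoxib 2 the highest (-0.29 ± 0.09, edgeR adjusted p = 0.0481). After GC correction the log2 fold changes were -0.18 for Col16a1 (edgeR adjusted p = 0.169), -0.39 for Col8a2 (edgeR adjusted p = 0.154) and -0.15 for Col27a1 (edgeR adjusted p = 0.253). The Col16a1 call was lost without control 5, and that of Col8a2 without rofecoxib 2, rofecoxib 7 or control 5. That of Col27a1 held only without celecoxib 4, rofecoxib 2, rofecoxib 3, rofecoxib 4, control 1, control 3 or control 4, and was lost in the other 17 fits that left 1 library out. None of the 5 genes was called without rofecoxib 7 and rofecoxib 8, when calls with rofecoxib over all genes fell from 766 to 37.

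**Figure D2:**
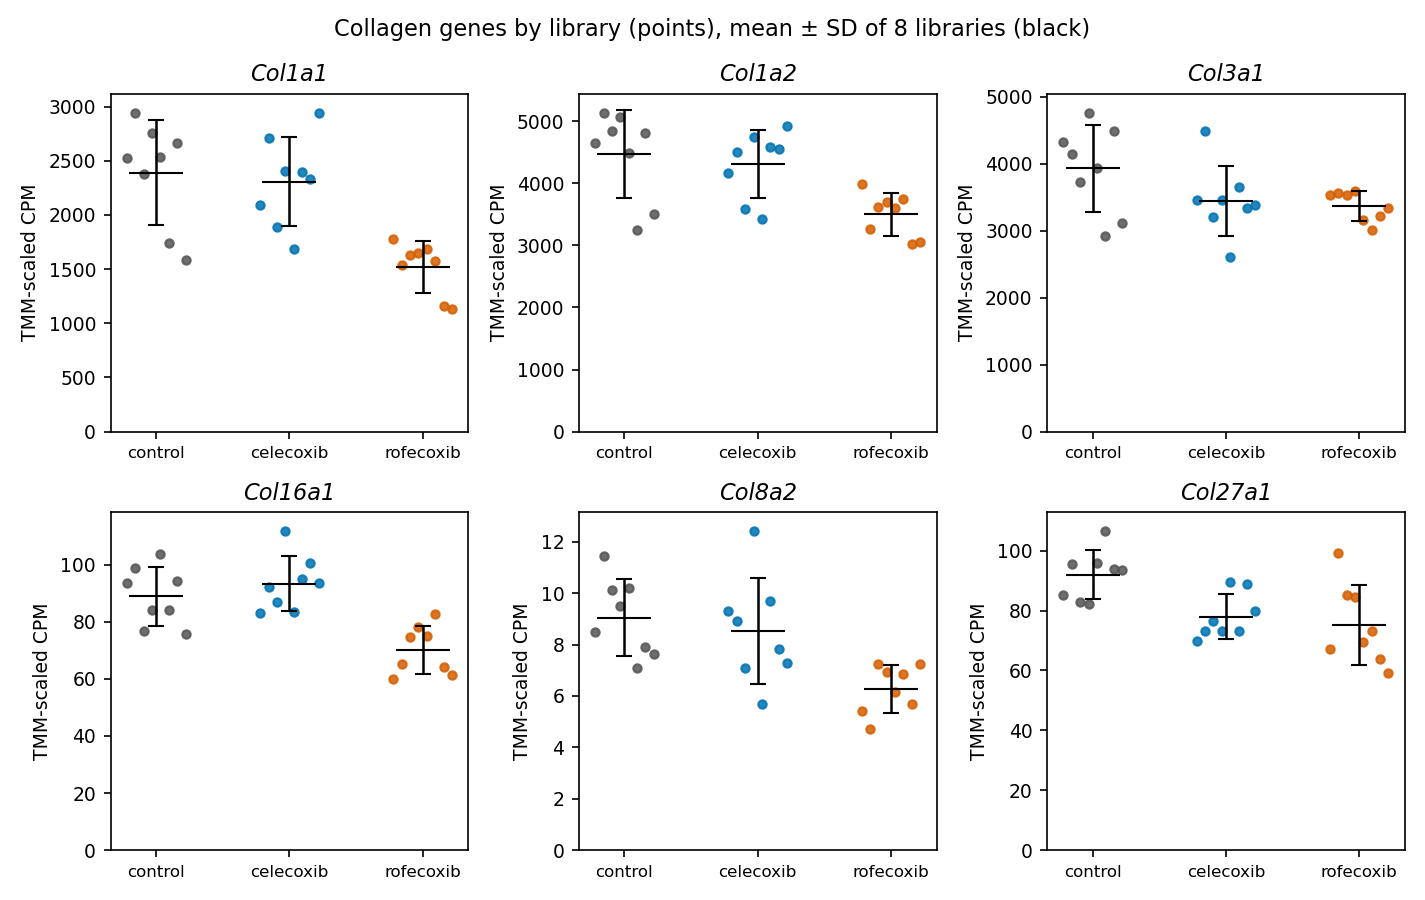
TMM-scaled CPM of the 5 genes called lower with rofecoxib and of Col3a1, by group on the x axis. Points are single libraries in replicate order, and black marks are the mean ± SD of 8 libraries. For Col1a1 the rofecoxib libraries lie between 1128 and 1779 CPM and 4 of them are below every control. For Col3a1 they lie between 3017 and 3594 CPM, inside the control range but below the control median.

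Col3a1, the chain of type III collagen that shares fibrils with type I, was not called. It ran from 2922 to 4761 CPM in controls, from 2606 to 4483 CPM with celecoxib and from 3017 to 3594 CPM with rofecoxib. The log2 fold change with rofecoxib was -0.22 ± 0.09 (edgeR adjusted p = 0.132), and -0.19 after GC correction (edgeR adjusted p = 0.285). Every rofecoxib library lay inside the control range, and all 8 were below the control median. Other highly expressed genes that were not called were Col18a1 (-0.10 ± 0.08), whose product is cleaved to endostatin, Col6a1 (-0.11 ± 0.06), Col6a2 (-0.22 ± 0.08, edgeR adjusted p = 0.0827), Col4a1 (-0.11 ± 0.06) and Col4a2 (-0.16 ± 0.07). The largest fold changes without a call belonged to low-count genes. They were Col6a5 at 1.498 ± 0.58, where rofecoxib 4 alone had 14.3 CPM and the next library 4.10 CPM, Col2a1 at -1.19 ± 0.63, and Col28a1 at 0.59 ± 0.42.

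Chains were also set against each other within a library, as a ratio of counts per kilobase. Col1a2 to Col1a1 was 2.09 ± 0.18 in controls, 2.09 ± 0.16 with celecoxib and 2.58 ± 0.24 with rofecoxib (SD, n = 8 each). Rofecoxib libraries ran from 2.35 to 3.00 and controls from 1.93 to 2.46, with overlap. Col3a1 to Col1a1 was 1.77 ± 0.17, 1.61 ± 0.19 and 2.42 ± 0.43, and rofecoxib 8 was the highest library in both ratios. Col3a1 to Col1a2 was 0.847 ± 0.059, 0.772 ± 0.097 and 0.934 ± 0.104, with overlapping ranges. Col6a2 to Col6a1 was 0.928 ± 0.015, 0.918 ± 0.048 and 0.858 ± 0.034, and Col4a2 to Col4a1 was 0.943 ± 0.031, 0.953 ± 0.042 and 0.915 ± 0.038. Transcript GC content was 56.2% for Col6a2 and 56.7% for Col6a1, and 60.6% for Col4a2 and 57.7% for Col4a1. The ratios were not tested. The GC slopes were lowest in the rofecoxib group, and their part in the ratios was not tested.

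**Figure D3:**
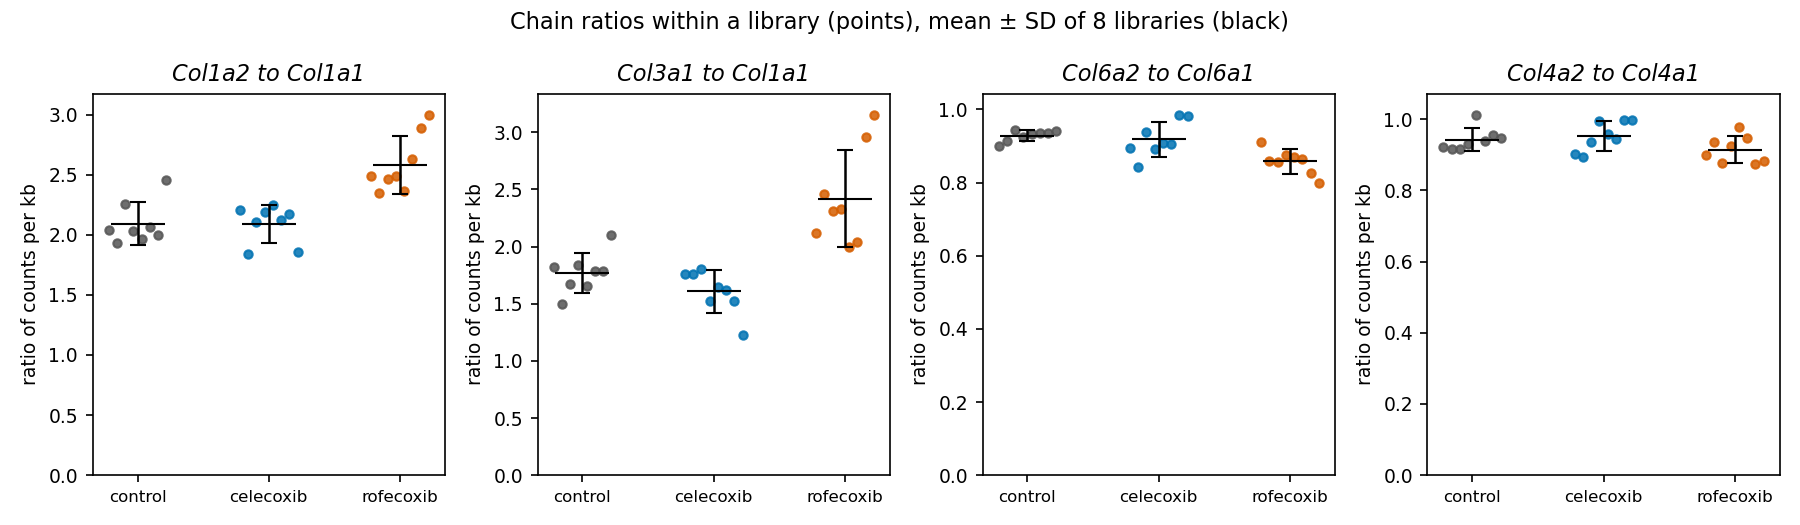
Ratios of counts per kb between collagen chains within a library, by group. Points are single libraries in replicate order and black marks are the mean ± SD of 8 libraries. Col1a2 to Col1a1 and Col3a1 to Col1a1 are higher in the rofecoxib libraries, up to 3.00 and 3.15 in rofecoxib 8, and Col4a2 to Col4a1 stays near 0.9 in each group.

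With celecoxib, 1 of 37 collagen genes was called against control, a share of 2.7% against 1.41% of all genes tested (0.913% higher and 0.498% lower). All genes called split into 132 higher and 72 lower, or 100 and 83 scaled by library totals alone. The median log2 fold change of the 37 was 0.07. Col22a1, the chain of a FACIT collagen of tissue junctions (ENSMUSG00000079022, mm9 chromosome 15 from 71626023 to 71864859), had 1.41 to 2.21 CPM in controls with a median of 1.96, and 0.982 to 1.99 CPM with celecoxib with a median of 1.32. In all, 6 of 8 celecoxib libraries lay below the lowest control, celecoxib 7 was well above the rest, and the log2 fold change was -0.55 ± 0.13 (edgeR adjusted p = 0.0414). Its mean count was only 35.8, and of the 24 fits without 1 library the call was lost in 14. It held without celecoxib 1, celecoxib 7, rofecoxib 1, rofecoxib 2, rofecoxib 5, rofecoxib 6, rofecoxib 7, rofecoxib 8, control 5 or control 6. After GC correction 2 genes were called, both lower, against 2.12% of all genes (1.3% higher and 0.823% lower). Col22a1 remained called (edgeR adjusted p = 0.0347) and Col27a1 was called as well (-0.29, edgeR adjusted p = 0.0335, and 0.151 before correction).

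Of the abundant collagens none was called with celecoxib. The log2 fold changes were -0.05 ± 0.13 for Col1a1, -0.05 ± 0.09 for Col1a2, -0.19 ± 0.09 for Col3a1 (edgeR adjusted p = 0.301), 0.18 ± 0.08 for Col18a1, 0.07 ± 0.06 for Col6a1 and 0.06 ± 0.08 for Col6a2. Among the rest the largest were Col28a1 at 0.63 ± 0.42, Col5a3, a chain of type V found in nerve and fat, at 0.54 ± 0.24, and Col11a1 at 0.51 ± 0.46. At an unadjusted p under 0.05, 5 of the 37 were higher and 2 lower in edgeR. DESeq2 called Col11a2 higher and Col22a1 lower. Over all genes DESeq2 called 477 with celecoxib, where edgeR called 204.

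Between the drugs, whose doses differed, 13 of 37 collagen genes were higher with celecoxib than with rofecoxib and none lower. The called share was 35.1%, against 22.7% of all genes tested (11.5% higher and 11.2% lower), with a median log2 fold change of 0.18. At an unadjusted p under 0.05, with no share of all genes to set beside it, 14 of the 37 were higher and 2 lower in edgeR. DESeq2 called 13 higher and none lower, and over all genes it called 3624 between the drugs, where edgeR called 3275. After GC correction 2 were called, both higher, against 9.25% of all genes (5.01% higher and 4.24% lower). These comparisons share the celecoxib and rofecoxib libraries with those against control, so they are not separate evidence.

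Col11a2, a fibrillar chain known from cartilage (ENSMUSG00000024330, mm9 chromosome 17 from 34176180 to 34203832), had 10.7 to 15.6 CPM with celecoxib and 7.02 to 11.7 CPM with rofecoxib. In 7 of 8 celecoxib libraries it was above the highest rofecoxib library, and the log2 fold change was 0.59 ± 0.10 (edgeR adjusted p = 0.00127, and 0.0257 after GC correction). Col1a1 was likewise above the highest rofecoxib library in 7 of 8 celecoxib libraries (0.60 ± 0.13, edgeR adjusted p = 0.00352, and 0.036 after GC correction). The calls of both held whichever 1 of the 24 libraries was left out, and without rofecoxib 7 and rofecoxib 8. Col16a1 had 83.0 to 111.7 CPM with celecoxib and 60.1 to 82.6 CPM with rofecoxib (0.41 ± 0.08, edgeR adjusted p = 0.00164), and it was not called after GC correction (edgeR adjusted p = 0.0906). Col7a1, the chain of the anchoring fibrils of epithelia, had 5.34 to 8.57 CPM and 3.49 to 5.52 CPM (0.51 ± 0.12, edgeR adjusted p = 0.005, and 0.0737 after GC correction).

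Several of the other genes called encode chains of the same protein. Both chains of the main type IV network were among them, Col4a1 (0.21 ± 0.06, edgeR adjusted p = 0.0189) and Col4a2 (0.27 ± 0.07, edgeR adjusted p = 0.0123). So were Col6a1 (0.18 ± 0.06, edgeR adjusted p = 0.0495) and Col6a2 (0.28 ± 0.08, edgeR adjusted p = 0.0167) of type VI. The multiplexins, which are separate collagen types, were also called, Col15a1 (0.32 ± 0.11, edgeR adjusted p = 0.0355) and Col18a1 (0.27 ± 0.08, edgeR adjusted p = 0.015). Col1a2 (0.30 ± 0.09, edgeR adjusted p = 0.0244), Col8a2 (0.44 ± 0.13, edgeR adjusted p = 0.0208) and Col20a1, of another FACIT type (0.25 ± 0.09, edgeR adjusted p = 0.0498), completed the list. After GC correction none of these 9 was called, with edgeR adjusted p-values from 0.15 for Col6a2 to 0.664 for Col6a1. Leaving out 1 library, the Col6a1 call held only without celecoxib 1, celecoxib 3, rofecoxib 1, rofecoxib 6 or control 6, and that of Col20a1 only without celecoxib 1, celecoxib 7, rofecoxib 6, control 2 or control 5. The Col15a1 call was lost without celecoxib 6, celecoxib 7, celecoxib 8, rofecoxib 2, rofecoxib 4, rofecoxib 7 or rofecoxib 8, and that of Col1a2 without celecoxib 7, celecoxib 8, rofecoxib 7 or rofecoxib 8. The Col4a1 call was lost without rofecoxib 8 and that of Col8a2 without celecoxib 4. Without both rofecoxib 7 and rofecoxib 8, 4 of the 13 were called, Col1a1, Col11a2, Col7a1 and Col16a1. Over all genes 1326 were then called between the drugs, against 3275 with all libraries.

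Of the abundant genes not called between the drugs, Col3a1 was at 0.03 ± 0.09, Col4a5 at -0.06 ± 0.06, Col5a2 at 0.13 ± 0.07, Col5a1 at 0.10 ± 0.07, Col6a3 at 0.11 ± 0.07 and Col4a6 at 0.08 ± 0.06. Col4a5 and Col4a6, neighbours on chromosome X, encode the other type IV chains of smooth muscle basement membranes. The largest fold changes without a call were Col6a5 at -1.23 ± 0.58, Col2a1 at 0.73 ± 0.65 and Col9a3 at 0.44 ± 0.25. For Col9a3, 6.07% of its exon bases overlap Tcfl5 on the opposite strand, and the strand setting of the counting is not known from the labels.

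**Figure D4:**
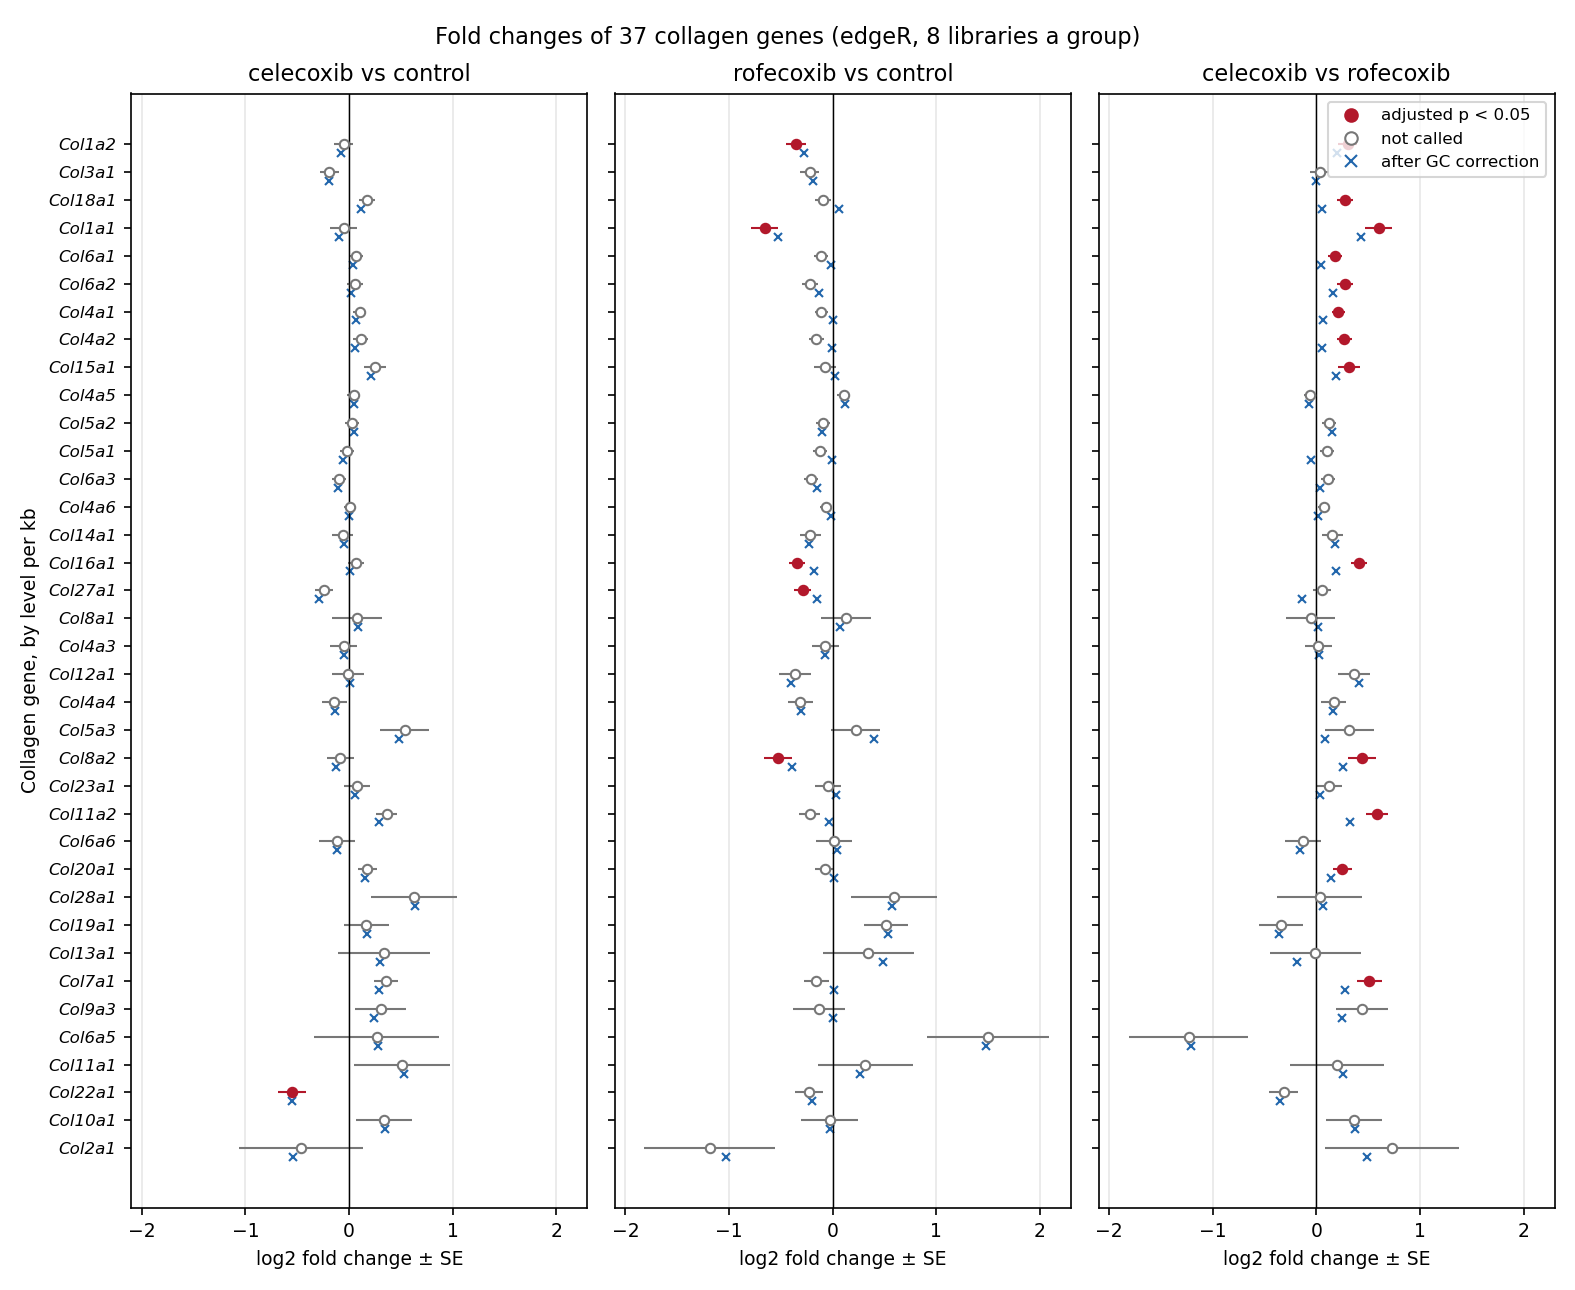
Log2 fold changes of the 37 collagen genes in the 3 comparisons, with bars for the SE from edgeR. Filled red points are called at an adjusted p under 0.05, open points are not, and blue crosses are the values after GC correction. With rofecoxib the 5 called genes lie left of 0, and in the comparison of the drugs the 13 called genes lie right of 0 and move toward 0 after correction.

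Fold changes were set beside transcript GC content. Across the 37 genes, which are not independent replicates, Spearman's rho between log2 fold change and GC content was 0.10 for celecoxib against control, -0.40 for rofecoxib against control and 0.58 between the drugs. Over the 14075 genes tested with a GC value it was 0.19, -0.48 and 0.55. Genes with a GC content near 58.75% had a median log2 fold change of -0.14 with rofecoxib. Of the 7 collagen genes in that bin, Col1a1 was at -0.65, Col8a2 at -0.53 and Col27a1 at -0.29, all called, while Col9a3 was at -0.14, Col5a1 at -0.12, Col4a1 at -0.11 and Col13a1 at 0.34, none called. After correction the median of the 37 was 0.04 for celecoxib, -0.02 for rofecoxib and 0.07 between the drugs. Whether the GC slope arises in the tissue or in library making was not tested.

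**Figure D5:**
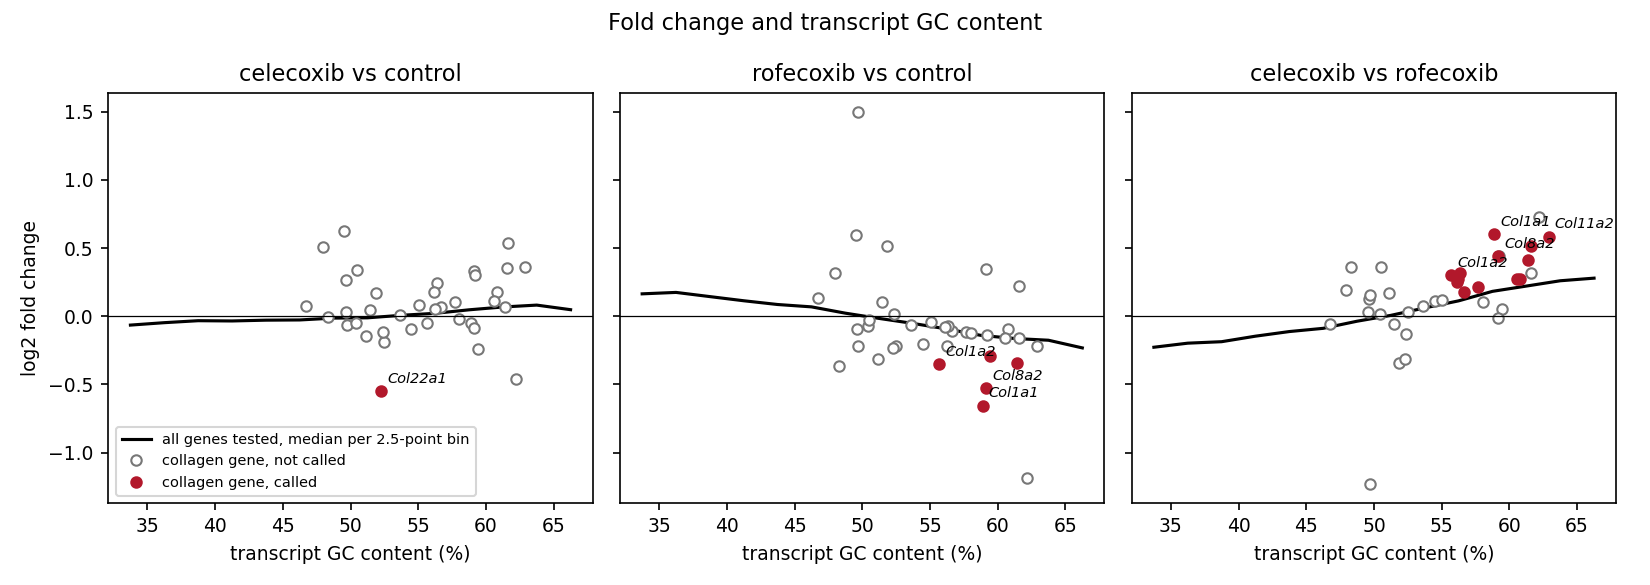
Log2 fold change against transcript GC content in percent for the 37 collagen genes, with called genes filled. The black line is the median of all genes tested in bins of 2.5 percentage points with at least 20 genes. Col1a1 lies at -0.65 with rofecoxib, below the line, which is at -0.14 near its GC content.

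Enzymes and chaperones of collagen synthesis were read beside their substrates, with 34 of 36 genes of the list tested. With rofecoxib 4 of the 34 were lower and none higher, where 5.3% of all genes were called (2.87% lower), and after GC correction 1 of 34 was called against 1.2% of all genes. Pcolce, which speeds removal of the procollagen C-propeptide, was at 163 CPM against 248 CPM in controls (-0.60 ± 0.09, edgeR adjusted p = 0.000809), and it was called after GC correction (edgeR adjusted p = 0.0112) and without rofecoxib 7 and rofecoxib 8. Adamts2, which removes the N-propeptide (-0.37 ± 0.08, edgeR adjusted p = 0.0164), Bmp1, the C-proteinase (-0.22 ± 0.06, edgeR adjusted p = 0.04), and Loxl3, a crosslinking oxidase (-0.19 ± 0.05, edgeR adjusted p = 0.0296), were not called after correction, nor without rofecoxib 7 and rofecoxib 8. The median of the list was -0.09. At an unadjusted p under 0.05, again with no share of all genes, edgeR had 1 member higher and 9 lower. DESeq2 called 6 lower and none higher, where it called 1567 of all genes and edgeR 766. With celecoxib edgeR and DESeq2 called none, and 3 members were higher and none lower at an unadjusted p under 0.05.

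Between the drugs 12 of the 34 were higher with celecoxib and none lower, where 22.7% of all genes were called (11.5% higher). There were 15 higher and 1 lower at an unadjusted p under 0.05, again with no share of all genes. In DESeq2 13 were higher and none lower, where it called 3624 of all genes and edgeR 3275. The 12 called by edgeR included Loxl3 (0.28 ± 0.05, edgeR adjusted p = 0.00127), Pcolce (0.47 ± 0.09, edgeR adjusted p = 0.00144), Bmp1 (0.33 ± 0.06, edgeR adjusted p = 0.00161), Plod1 (0.28 ± 0.06, edgeR adjusted p = 0.00237) and Plod3 (0.22 ± 0.05, edgeR adjusted p = 0.00444), both lysyl hydroxylases, Adamts2 (0.35 ± 0.08, edgeR adjusted p = 0.00516), Loxl1 (0.30 ± 0.07, edgeR adjusted p = 0.00689) and Adamts14, an N-proteinase (0.65 ± 0.16, edgeR adjusted p = 0.00842). After GC correction 5 were called, against 9.25% of all genes, namely Loxl3, Bmp1, Pcolce, Adamts2 and Ctage5. Without rofecoxib 7 and rofecoxib 8, 9 of the 12 were called, and Leprel2, Lepre1 and Crtap were not. Serpinh1, the collagen chaperone, was at 970.4 CPM in controls, 1005 CPM with celecoxib and 890.1 CPM with rofecoxib and was not called between the drugs (edgeR adjusted p = 0.0511).

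Of 9 collagen receptor genes tested, Mrc2, an endocytic receptor that takes up collagen, was lower with rofecoxib (-0.34 ± 0.08, edgeR adjusted p = 0.0182) and Itgb1, the beta chain of the collagen-binding integrins, was higher (0.20 ± 0.06, edgeR adjusted p = 0.0461). Of all genes tested, 5.3% were called with rofecoxib (2.43% higher and 2.87% lower). With celecoxib edgeR and DESeq2 called none, and 2 were higher and none lower at an unadjusted p under 0.05 in edgeR. Between the drugs Ddr1 (0.23 ± 0.08, edgeR adjusted p = 0.0455) and Mrc2 (0.22 ± 0.08, edgeR adjusted p = 0.04) were higher with celecoxib and Ddr2 lower (-0.21 ± 0.07, edgeR adjusted p = 0.0362). As 22.7% of all genes tested were called between the drugs, these calls are not read as particular to the receptors. After GC correction no receptor was called, with 2 higher and 2 lower for rofecoxib, 2 higher and 1 lower for celecoxib and none between the drugs at an unadjusted p under 0.05. Without rofecoxib 7 and rofecoxib 8 edgeR called no receptor in any of the 3 comparisons, with 2 higher and 3 lower for rofecoxib, 2 higher and 1 lower for celecoxib and 1 higher and none lower between the drugs at an unadjusted p under 0.05.

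Markers of fibroblasts and smooth muscle cells were read beside these results. Of 12 fibroblast markers 3 were lower with rofecoxib and none higher, Serpinf1 (-0.48 ± 0.12, edgeR adjusted p = 0.0306), Fbln1 (-0.57 ± 0.13, edgeR adjusted p = 0.0212) and Clec3b (-0.44 ± 0.12, edgeR adjusted p = 0.037). Of all genes tested, 2.87% were called lower and 2.43% higher with rofecoxib, and 1.2% were called after GC correction. After GC correction none of the 3 was called (edgeR adjusted p = 0.0692, 0.0506 and 0.266), while the median log2 fold change of the list was -0.24 before and -0.29 after. Between the drugs 4 of the 12 were higher with celecoxib and none lower, Serpinf1 (0.61 ± 0.12, edgeR adjusted p = 0.00221), Fbln1 (0.58 ± 0.13, edgeR adjusted p = 0.00483), Gsn (0.34 ± 0.10, edgeR adjusted p = 0.0173) and Pi16 (0.49 ± 0.15, edgeR adjusted p = 0.0275), with a median of 0.26 for the list. Of all genes tested, 11.5% were called higher with celecoxib than with rofecoxib and 11.2% lower. After GC correction 3 were called, against 9.25% of all genes, namely Serpinf1, Fbln1 and Dcn, which encodes the fibril-binding proteoglycan decorin. The list's summed level was 6176 to 8584 CPM in controls and 4205 to 7313 CPM with rofecoxib, with rofecoxib 2 and rofecoxib 1 lowest, while Col1a1 was lowest in rofecoxib 8 and rofecoxib 7. In these 2 libraries fibroblast markers summed to 7014 and 6445 CPM, inside the control range. Smooth muscle markers had 3 of 10 higher with rofecoxib, Tagln, Acta2 and Actg2, and the same genes were higher with celecoxib. Of all genes tested, 2.43% were called higher with rofecoxib and 0.913% with celecoxib. After GC correction 4 of the 10 were called higher with celecoxib, these 3 among them, and Tagln and Actg2 with rofecoxib. The shares of all genes called higher were then 1.3% with celecoxib and 0.595% with rofecoxib. In bulk tissue, fewer cells of a type and less RNA per cell cannot be told apart, and the part of cell composition in the collagen results was not tested.

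Calls of other markers stand beside 1.41% of all genes called with celecoxib, 5.3% with rofecoxib and 22.7% between the drugs. After GC correction these shares were 2.12%, 1.2% and 9.25%. Chondrocyte markers summed to 129 to 209 CPM in controls and 117 to 141 CPM with rofecoxib, and of 7 tested Comp was lower (-0.42 ± 0.11, edgeR adjusted p = 0.0376, and 0.168 after GC correction). Between the drugs Comp was higher with celecoxib (0.43 ± 0.11, edgeR adjusted p = 0.0114) and Sox5 lower (-0.38 ± 0.11, edgeR adjusted p = 0.0197), and neither was called after GC correction. Schwann cell markers summed to 482 to 744 CPM in controls, with control 6 highest. Of 8 tested only Ncam1 was called. It was lower with celecoxib than in controls (-0.34 ± 0.08, edgeR adjusted p = 0.0396) and than with rofecoxib (-0.29 ± 0.08, edgeR adjusted p = 0.0173), also after GC correction. The median log2 fold change of the 8 went the other way, at 0.31 for celecoxib against control and 0.20 between the drugs. Macrophage markers summed to 240 to 397 CPM in controls and 132 to 279 CPM with rofecoxib, with C1qc and Cd14 lower (edgeR adjusted p = 0.043 and 0.0333), and neither was called after GC correction (edgeR adjusted p = 0.156 and 0.0659). Of muscle markers, Tnnt3 was higher with celecoxib (0.66 ± 0.16, edgeR adjusted p = 0.0391, and 0.0338 after GC correction), and Ryr2 (0.47 ± 0.10, edgeR adjusted p = 0.0174, and 0.0259 after GC correction) and Actc1 (2.16 ± 0.56, edgeR adjusted p = 0.0333, and 0.0542 after GC correction) were higher with rofecoxib. Summed cardiac markers stood at 492 CPM in rofecoxib 2, with a rofecoxib median of 92.1 CPM. The Ryr2 and Actc1 calls are not given without that library, so they may rest on it. The brown adipocyte gene Ppargc1a was lower with celecoxib than with rofecoxib (-1.10 ± 0.29, edgeR adjusted p = 0.0119, and 0.0365 after GC correction).

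Collagen genes also varied together within groups. Over the 24 libraries, on log2 CPM deviations from the group mean, Pearson's r was 0.93 between Col1a1 and Col1a2 (Spearman's rho 0.77, and r 0.90 without the 2 farthest libraries), 0.93 between Col4a1 and Col4a2 (0.92 and 0.91), and 0.95 between Col6a1 and Col6a2 (0.95 and 0.95). Col4a3 and Col4a4, which also start head to head, were at 0.91 (0.86 and 0.84), and Col4a5 and Col4a6 at 0.70 (0.46 and 0.38). Col3a1 and its neighbour Col5a2 on chromosome 1 were at 0.41 (0.31 and 0.13), and Col1a1 and Col3a1 at 0.73 (0.68 and 0.61). These values share library and depth and were made without GC correction. They describe the libraries, and no test was made. Col4a1 and Col4a2 share 22 exon bases, under 1% of either.

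Outside the collagens, the genes whose within-group pattern was most like that of Col1a1 were Adamts2 (r 0.85), Lrp1 (0.83), Timp2 (0.81), Arsb (0.81) and App (0.81), over 24 libraries. Among low-count members a different pattern stood out, in which Col28a1 and Col5a3 had an r of 0.90 and Col28a1 and Col11a1 an r of 0.86. In each of these genes control 6 was the highest control and celecoxib 7 the highest celecoxib library. For these pairs no Spearman's rho was computed, nor an r without the 2 farthest libraries, so single libraries may carry the values. Against summed markers of 10 cell types, chondrocyte markers gave the highest r for 10 of the 37 genes, among them Col6a2 (r 0.73, Spearman's rho 0.71, and r 0.72 without the 2 farthest libraries), Col6a1 (0.71, 0.68 and 0.71), Col18a1 (0.66, 0.68 and 0.60), Col1a2 (0.61, 0.58 and 0.67), Col1a1 (0.59, 0.55 and 0.57) and Col15a1 (0.59, 0.60 and 0.58). With fibroblast markers Col1a1 had an r of 0.26. All these correlations were made without GC correction. The chondrocyte sum was lowest in rofecoxib 8 and rofecoxib 7, at 117 CPM each, which also had the lowest GC slopes. It was highest in celecoxib 8, at 219 CPM with a slope of 1.90. The part of GC content or of cartilage in these correlations was not tested. Col5a3 had an r of 0.74 with summed Schwann cell markers (Spearman's rho 0.65, and r 0.58 without the 2 farthest libraries). Col23a1, a transmembrane collagen, had an r of 0.76 with summed fibroblast markers (0.56 and 0.55), and Col4a1 an r of 0.58 with summed smooth muscle markers (0.53 and 0.53).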

How the data were processed

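Per the labels, TruSeq libraries of polyA RNA, 24 in all, were built over 3 days using 13 PCR cycles, with no day given per library. The submitters' processing notes name CASAVA 1.8.2, STAR 2.5.1b and mm9. How reads were counted, with which annotation and strand setting, is not given in the sources used. The deposited values are raw whole-number counts of 25941 genes, in a single table. Totals lay within 0.164% of each other, so depth had been evened out beforehand, and how is not known from the labels. This can lower the precision of low counts.

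Counts were tested with edgeR 4.0.16 in R 4.3.3 (filterByExpr, TMM factors of 0.959 to 1.03, robust quasi-likelihood fit of all 24 libraries, 21 residual degrees of freedom). Benjamini-Hochberg adjustment ran over all 14451 genes tested. The SE of a log2 fold change was its size divided by the root of the test's F statistic. Levels are CPM computed from the counts with TMM factors. GC correction subtracted a lowess curve (span 0.3) of each library's log2 CPM deviations on transcript GC, from the longest protein-coding GENCODE M21 transcript matched by Ensembl identifier (14075 genes tested). Gene coordinates are mm9 as deposited, and promoters are GRCm38.p6. DESeq2 1.42.0 was an alternative.

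Replicates are libraries the series calls biological. No label names the animal, so p-values measure the spread between these samples, which may be partly technical. The numbers in the titles do not mix between groups, so an order they mark and the groups cannot be told apart. The members, lists and tests were chosen with earlier results of these data known. Genes named were, per comparison, every called collagen gene and, of those not called, the 6 highest per kb and the 3 largest fold changes. Of the other lists, called genes were named, up to 8 a comparison, and of the genes most like Col1a1 the first 5. Genes named beyond this rule were chosen after their values were seen. The alternatives were other scaling, no filter, 2 groups only, a replicate block, GC correction, DESeq2 and leaving out libraries.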

Additional observations from a re-analysis of the deposited data

Results flagged for a closer look

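In 12 of 111 combinations of gene and group, 1 library lay far from the other 7, by a gap to its nearest neighbour above Dixon's 95% critical value of 0.526 of the range. Chance gives about 1 in 20. Control 6 was low in Col4a6 at 370.1 CPM and in Col22a1 at 1.41 CPM, and high in Col28a1 at 10.2 CPM, where the next control had 3.31 CPM. Control 3 was low in Col8a1 at 13.2 CPM. Celecoxib 1 was low in Col4a2 at 1189.7 CPM, celecoxib 4 high in Col5a2 at 752 CPM and celecoxib 8 high in Col2a1 at 2.53 CPM. Celecoxib 7 was high in Col22a1 at 1.99 CPM and in Col10a1 at 1.34 CPM. Rofecoxib 1 was high in Col10a1 at 0.863 CPM, rofecoxib 2 low in Col14a1 at 261 CPM, and rofecoxib 4 high in Col6a5 at 14.3 CPM, where the next library had 4.10 CPM. Of the genes called against control, Col22a1 with celecoxib is the 1 among these, and without celecoxib 7 its call held.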

How the results depend on the processing

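No called result changed direction under the alternatives run. Collagen genes called, for celecoxib against control, rofecoxib against control and celecoxib against rofecoxib, were 1, 5 and 13 as reported. They were 0, 3 and 10 with no filter on low counts, 0, 4 and 12 with only the 2 groups compared, 2, 1 and 2 with GC correction, and 2, 6 and 13 with DESeq2. Without control 6 and rofecoxib 2 they were 1, 6 and 11, and without rofecoxib 7 and rofecoxib 8, chosen after seeing the data, 1, 0 and 4. All genes called were 204, 766 and 3275 as reported. For celecoxib against control they were 86 with no filter, 88 with only the 2 groups compared, 307 with GC correction and 477 with DESeq2. For rofecoxib against control they were 294, 461, 174 and 1567 in the same order, 215 without control 6 and rofecoxib 2, and 37 without rofecoxib 7 and rofecoxib 8. Between the drugs they were 1336 with GC correction, 3624 with DESeq2 and 1326 without rofecoxib 7 and rofecoxib 8. Biosynthesis genes called with rofecoxib numbered 1 with GC correction and 1 without rofecoxib 7 and rofecoxib 8, against 4. Between the drugs there were 5 with GC correction and 9 without rofecoxib 7 and rofecoxib 8, against 12. The causes were not tested.

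With 1 library left out, collagen genes called ranged from 0 to 2, 1 to 5 and 8 to 13, all genes from 42 to 312, 170 to 1121 and 2147 to 3739, and biosynthesis genes from 0 to 0, 2 to 6 and 9 to 15. The rofecoxib count of 5 was 1 without control 5, 2 without rofecoxib 7 and 3 without rofecoxib 2, rofecoxib 8, control 2 or control 7, and the count of 13 between the drugs was 8 without rofecoxib 8.

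No label says what same-numbered libraries share. Their deviations were correlated for control with celecoxib, control with rofecoxib and celecoxib with rofecoxib, in this order. The median correlations were 0.20, 0.04 and -0.08. Values over 0.1 were found in 5, 3 and 2 of 8 pairs, and 3, 1 and 1 of 8 were best with their own number. With the replicate block, collagen genes called were 0, 3 and 11 and all genes 187, 653 and 3193. With the replicate block and GC correction they were 2, 0 and 2 and all genes 358, 138 and 1461, and biosynthesis genes 1 with rofecoxib and 5 between the drugs.

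Depth limits the low-count genes most, such as Col22a1 and Col10a1 with mean counts of 35.8 and 11.3.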
